A study of Mus musculus with 220 samples.

Results

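The interferon-gamma induced GTPases are large guanine nucleotide-binding proteins that cells make in response to interferon-gamma. The 10 genes described here were listed by name, with no threshold on their values, and are Gbp2, Gbp3, Gbp5, Gbp6, Gbp7, Igtp, Irgm1, Irgm2, Iigp1 and Tgtp1. They are 10 of the 24049 genes in a table of 220 single endothelial cells, sorted from the lymph nodes of C57BL/6 mice, captured on the Fluidigm C1 system and sequenced with a library each. Untreated mice gave the homeostatic groups, 32 cells of blood endothelium (BEC) and 79 of high endothelium (HEC). HEC line the venules through which lymphocytes enter the node. The 65 inflamed HEC came from mice with 4% oxazolone, a contact sensitiser, on the skin, taken on day 3. For the 44 dedifferentiated HEC, mice received LTBR-Ig once into the peritoneum and were sampled on day 7. LTBR-Ig is a soluble lymphotoxin β receptor that binds the ligands which maintain high endothelial venules. Inflamed cells 43 and 60 were near-identical, with r of 0.988 on log2 values where the closest other pair had 0.701, and were averaged and counted once, leaving 64 inflamed HEC and 219 cells.

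Interferon-gamma binds a receptor made of Ifngr1 and Ifngr2, which signal through the kinases Jak1 and Jak2. In the nucleus the response runs over a DNA element called GAS and an element called ISRE, which is bound by factors such as Irf1 and is also used by type I interferon. The members fall into 2 families. Guanylate-binding proteins (Gbp genes) assemble on the vacuoles of intracellular pathogens and on bacteria, and promote inflammasome signalling. Immunity-related GTPases comprise the GMS proteins Igtp, Irgm1 and Irgm2, which sit on the cell's own membranes and hold the others inactive there, and the GKS proteins Iigp1 and Tgtp1, which load onto pathogen vacuoles and disrupt them.

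The members lie in few places in the mouse genome (GRCm38, GENCODE M21), all as protein-coding genes. Gbp5, Gbp7, Gbp3 and Gbp2 lie on the plus strand of chromosome 3 within 144031 bases, at chr3:142493978-142638008. Gbp6 is at chr5:105270702-105293698 on the minus strand. Irgm1 (chr11:48861968-48871683) and Tgtp1 (chr11:48985327-48994172) lie on the minus strand of chromosome 11. Igtp (chr11:58199556-58207591) and Irgm2 (chr11:58199618-58222782) lie on its plus strand with overlapping annotated spans, and Iigp1 lies on another chromosome.

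The 250 bases before the start of transcription (RefSeq, GRCm38) were searched on both strands for GAS, spelled TTCNNNGAA, and for ISRE, spelled GAAANNGAAA. Entries were found for 8 of the 10 members, all but Gbp6 and Iigp1. All 8 held an ISRE match, against 3.46% of 27025 genes with an entry, and 5 of them held a GAS match as well (Gbp5, Gbp7, Igtp, Irgm2 and Tgtp1), against 8.13% of genes with GAS and 0.400% with both. The ISRE matches of Irgm1 and Gbp2 lay before the RefSeq start but inside exons of these genes as annotated in GENCODE. No GAS match overlapped an ISRE match in a member. The stretches below hold the matches nearest the start, in capitals, with 10 flanking bases on either side, and are shown because Igtp, Irgm2 and Tgtp1 share 1 arrangement of the elements while Gbp7 and Gbp3 have others. They are written 5′ to 3′ on the strand of the gene and contain no annotated exon.
Igtp, chr11:58199501-58199541, plus strand: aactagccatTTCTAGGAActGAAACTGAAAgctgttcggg
Irgm2, chr11:58214892-58214932, plus strand: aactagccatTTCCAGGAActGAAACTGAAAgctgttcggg
Tgtp1, chr11:48992304-48992344, minus strand: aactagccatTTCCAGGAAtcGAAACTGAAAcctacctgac
Gbp7, chr3:142530220-142530302, plus strand: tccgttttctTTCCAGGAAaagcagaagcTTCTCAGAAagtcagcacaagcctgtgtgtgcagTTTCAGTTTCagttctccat
Gbp3, chr3:142559989-142560024, plus strand: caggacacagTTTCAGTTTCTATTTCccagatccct

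In Igtp, Irgm2 and Tgtp1, GAS stood 2 bases before ISRE. The 41 bases of Igtp and Irgm2 were identical at 40 positions, and those of Tgtp1 at 31 with Igtp and at 32 with Irgm2. In Gbp7, 25 bases separated the nearer of 2 GAS matches from an ISRE in the opposite orientation. In Gbp3, 2 overlapping ISRE matches stood between 45 and 30 bases before the start and no GAS was found. Its second listed start held neither element. Irgm1 had 2 overlapping ISRE matches (GAAATAGAAA and GAAACCGAAA) and Gbp2 had 1 (TTTCACTTTC), with no GAS in either. With their flanking bases, annotated exons covered all 36 bases of the Irgm1 stretch and 22 of 30 of the Gbp2 stretch. The ISRE matches of Irgm1 and Gbp2 were therefore upstream of the RefSeq start only. In Gbp5 the ISRE (TTTCAATTTC) lay 165 bases before the start and the GAS matches lay at 245 and 52 bases. A match describes letters and does not show that a factor binds.

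**Figure D1:**
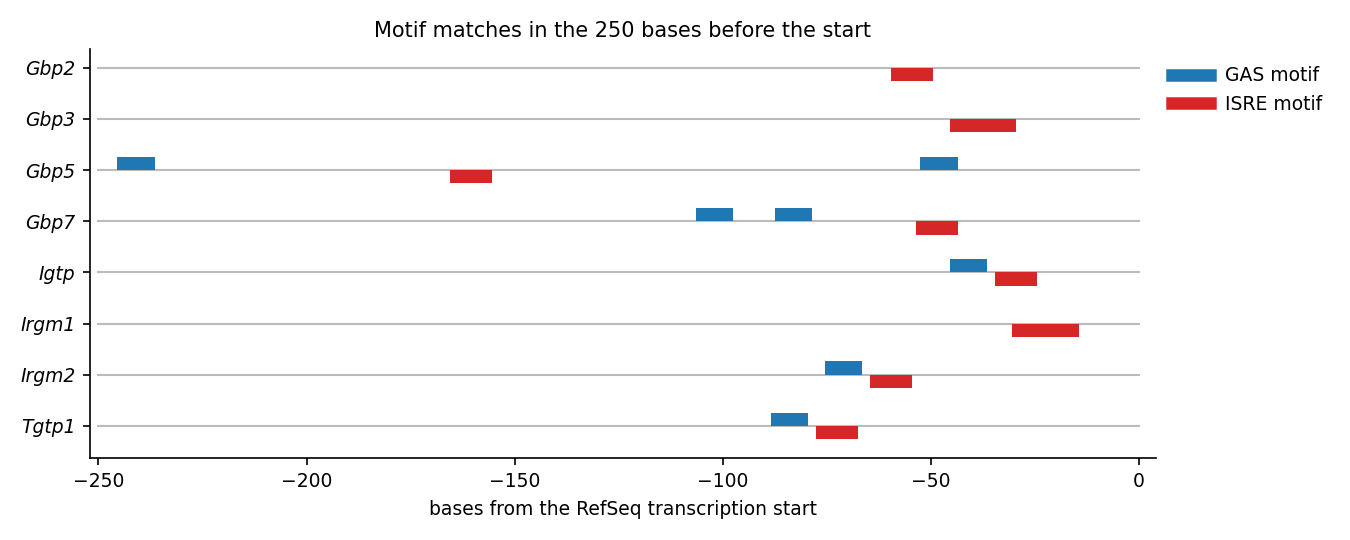
GAS (blue) and ISRE (red) matches along the 250 bases before the RefSeq start of the 8 members with an entry, with distance from the start in bases on the x axis. Each of the 8 has an ISRE match, and 5 have a GAS match, which in Igtp, Irgm2 and Tgtp1 stands 2 bases before the ISRE. The ISRE matches of Irgm1 and Gbp2 lie inside annotated exons.

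Values are FPKM, a count of fragments divided by transcript length and by the mapped fragments of the cell, and levels are means of log2(FPKM + 1) with the SD over cells. A cell detected a gene at an FPKM of 1 or more, and 1 fragment was worth about 0.0863 FPKM for Gbp7 to 0.240 FPKM for Igtp at the median cell. Shares of cells carry exact Clopper-Pearson 95% intervals, which cover counting error over cells only. The labels name no animal, so each group is 1 sample of cells that may share animals, and no test between groups was possible. A difference is the mean of the first group minus that of the second, and is called higher or lower at 1 or more on the log2 scale among genes detected in over 10% of the cells of either group. All 10 members passed that filter in each comparison. The approximated median depth was 1844955 to 2230769 fragments by group, and medians of 2870.5 genes in BEC, 3842 in homeostatic, 3961 in inflamed and 3075 in dedifferentiated HEC were detected per cell. High endothelial markers summed to medians of 425 FPKM in BEC and at least 14807 FPKM in each HEC group, and the blood endothelial markers were detected in every group. Pan-leukocyte markers summed to medians of 1.74 FPKM in BEC, 140 FPKM in homeostatic, 35.1 FPKM in inflamed and 36.6 FPKM in dedifferentiated HEC. By 3 or more markers at an FPKM of 10, 7 homeostatic, 3 inflamed and 2 dedifferentiated HEC carried RNA of another cell type, and without these 12 cells the counts of members called were the same in all 3 comparisons. Glycam1, a sialomucin gene of HEC, had 32.8 to 594 FPKM in every BEC, and the part of RNA from other cells in low values was not tested.

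By mean of log2(FPKM + 1), inflamed HEC had the highest level of all 10 members, and the lowest level was in BEC for 6 members, in dedifferentiated HEC for 3 (Gbp3, Gbp6 and Irgm2) and in homeostatic HEC for 1 (Gbp7). By arithmetic mean of FPKM, inflamed HEC were highest for 5 members only. Dedifferentiated HEC were then highest for Gbp7, Irgm1 and Tgtp1, homeostatic HEC for Gbp6 and BEC for Irgm2. The cells of the groups overlapped for every member. Neighbouring groups in the order differed by at most 0.540 SD for 9 members and by up to 1.01 SD for Tgtp1, so most neighbours were not separated beyond the spread between cells.

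**Figure D2:**
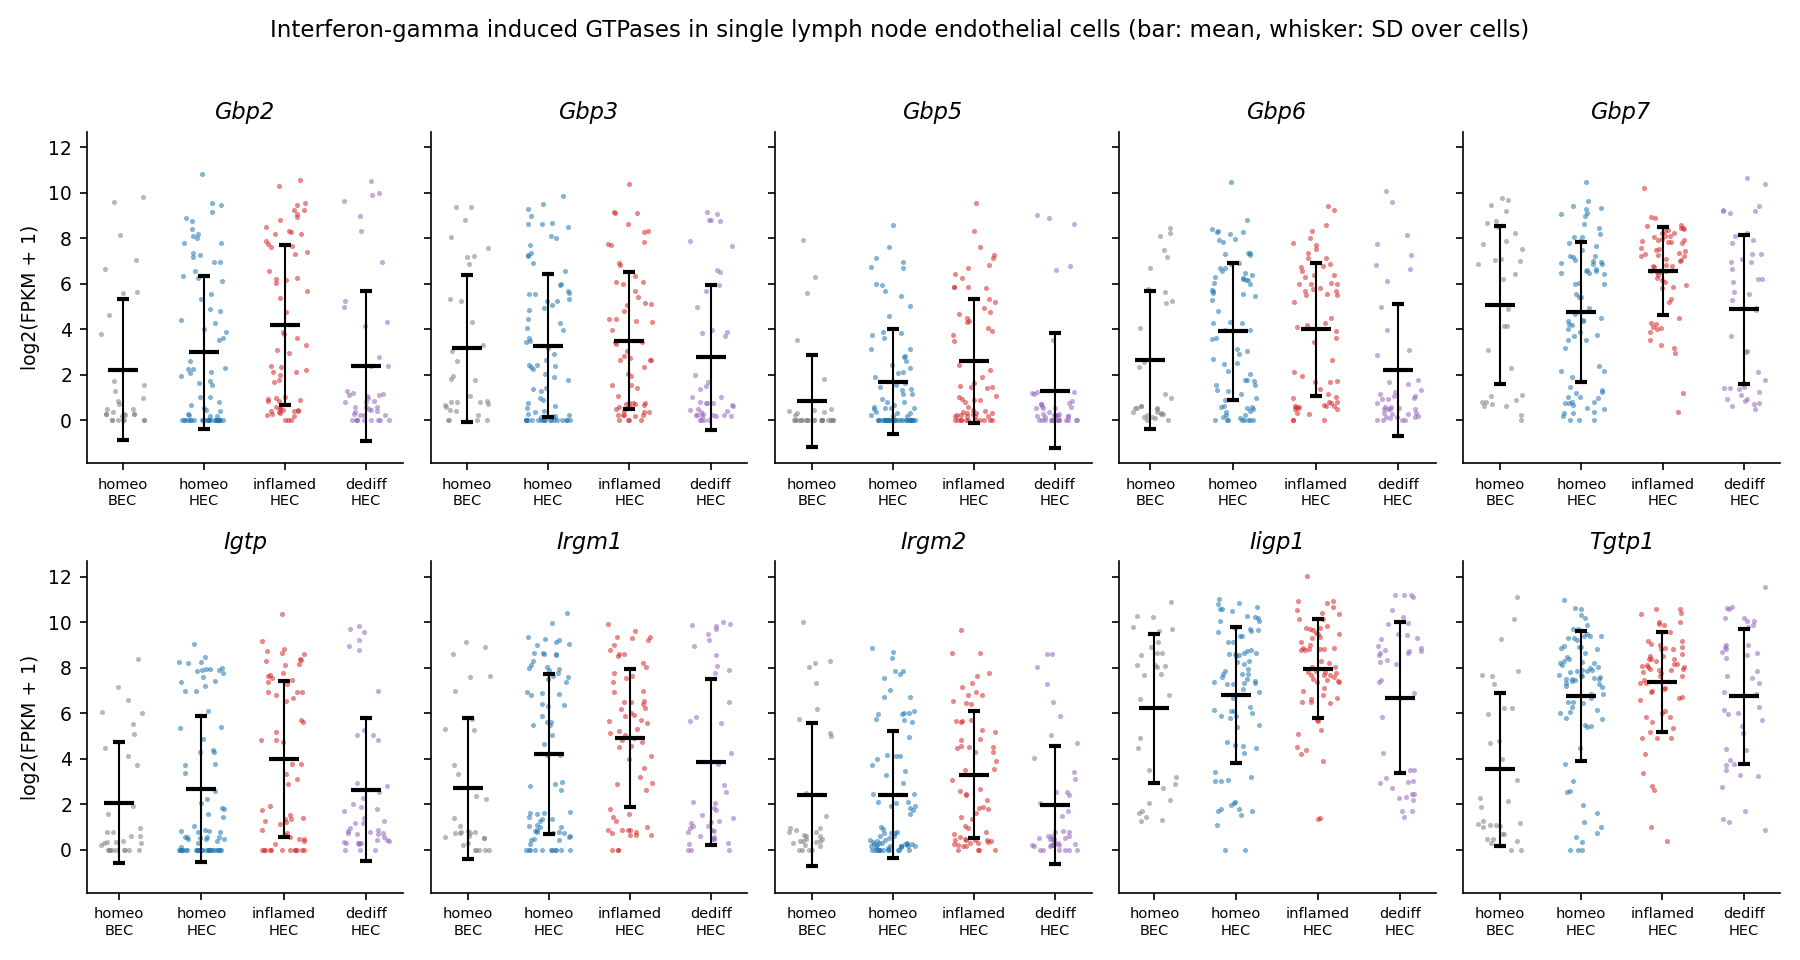
Each point is 1 cell, with log2(FPKM + 1) on the y axis and BEC and the homeostatic, inflamed and dedifferentiated HEC on the x axis, and the bar and whisker give the mean and SD over cells. Gbp7, Iigp1 and Tgtp1 have few low cells among inflamed HEC, while Gbp2, Gbp5, Igtp and Irgm2 are spread from 0 upward in every group.

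Among the guanylate-binding proteins, Gbp7 had the highest levels and was the member with the largest difference between inflamed and homeostatic HEC. Its lowest, median and highest FPKM were 0.29, 132 and 1178 in inflamed HEC, 0, 29.9 and 1428 in homeostatic HEC, 0.39, 41.6 and 1615 in dedifferentiated HEC, and 0, 78.9 and 872 in BEC. The median moved and the top of the range did not. At an FPKM of 10 or more it was found in 53 of 79 homeostatic and 59 of 64 inflamed HEC. Its level was 4.75 ± 3.08 in homeostatic HEC and 6.57 ± 1.95 in inflamed HEC, a difference of 1.82 or 0.708 SD. By arithmetic mean, 134 FPKM against 172 FPKM, the log2 ratio was 0.36. Dedifferentiated HEC differed from homeostatic HEC by 0.14, and homeostatic HEC from BEC by -0.30.

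Gbp2 loads onto vacuoles that hold Toxoplasma. It had a median of 0.395 FPKM in BEC (range 0 to 888), 2.13 in homeostatic HEC (0 to 1802), 8.24 in inflamed HEC (0 to 1525) and 0.78 in dedifferentiated HEC (0 to 1478). It was at 0 in 27 of 79 homeostatic and 3 of 64 inflamed HEC, and above 0 but under 1 FPKM in 9 and 18. Detection differed less, at 43 of 79 homeostatic (54.4%, 42.8% to 65.7%) and 43 of 64 inflamed HEC (67.2%, 54.3% to 78.4%). The level was 2.99 ± 3.36 in homeostatic and 4.18 ± 3.51 in inflamed HEC, a difference of 1.18. Homeostatic HEC differed from BEC by 0.77, and this passed 1 without BEC 2 (1.02) or without BEC 5 (1.01), which had 888 FPKM and 765 FPKM of Gbp2.

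Gbp5, which promotes assembly of the NLRP3 inflammasome, had the lowest level of the 10 members in every group. Its medians were 0 in BEC (highest 242), 0.45 in homeostatic HEC (highest 383), 1.72 in inflamed HEC (highest 748) and 0.195 in dedifferentiated HEC (highest 514). It was detected in 5 of 32 BEC (15.6%, 95% interval 5.28% to 32.8%), 33 of 79 homeostatic HEC (41.8%, 30.8% to 53.4%), 35 of 64 inflamed HEC (54.7%, 41.7% to 67.2%) and 10 of 44 dedifferentiated HEC (22.7%, 11.5% to 37.8%). In dedifferentiated HEC, 3 cells held 85.8% of all Gbp5 FPKM of the group, so its mean there stands for few cells. Differences were 0.84 for homeostatic HEC minus BEC, 0.91 for inflamed and -0.40 for dedifferentiated minus homeostatic HEC, none of them called. The first passed 1 without BEC 5 (1.01) or without BEC 17 (1.06).

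Gbp6, of the chromosome 5 cluster, was the member called lower in dedifferentiated HEC. Its lowest, median and highest FPKM were 0, 14.7 and 1426 in homeostatic HEC, 0, 0.915 and 1095 in dedifferentiated HEC, and they were 0, 0.54 and 353 in BEC against 0, 17.7 and 673 in inflamed HEC. Detection was 58 of 79 homeostatic HEC (73.4%, 62.3% to 82.7%) and 20 of 44 dedifferentiated HEC (45.5%, 30.4% to 61.2%). The level was 3.91 ± 3.00 in homeostatic, 3.99 ± 2.92 in inflamed and 2.22 ± 2.92 in dedifferentiated HEC, against 2.65 ± 3.04 in BEC. It was therefore higher in homeostatic HEC than in BEC by 1.27 and lower in dedifferentiated HEC by 1.70 (difference -1.70), while inflamed HEC differed by 0.08. As a ratio of arithmetic means the dedifferentiated difference was -0.32, and 3 cells held 74.7% of the group's Gbp6 FPKM. Gbp6 is uncertain as a gene: 90.2% of the 50-base windows of its transcript also occur in Gm43302, a model with no row in the table, and 62.3% in Gbp10. Summing Gbp6 and Gbp10 gave 1.32, 0.28 and -1.61 for the 3 comparisons.

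Gbp3 varied least between the groups, with means over a range of 0.74. Its medians were 5.90 FPKM in inflamed HEC (highest 1323), 4.37 in homeostatic HEC (913), 2.46 in BEC (672) and 0.885 in dedifferentiated HEC (563). Its differences were 0.12 for homeostatic HEC minus BEC, and 0.22 for inflamed and -0.52 for dedifferentiated minus homeostatic HEC.

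Of the GMS proteins, Igtp, also called Irgm3 and found at the endoplasmic reticulum and lipid droplets, was called higher in inflamed HEC. Its median was 0.51 FPKM in BEC (0 to 327), 0.73 in homeostatic HEC (0 to 525), 10.7 in inflamed HEC (0 to 1325) and 1.22 in dedifferentiated HEC (0 to 903). It was detected in 36 of 79 homeostatic HEC (45.6%, 34.3% to 57.2%) and 44 of 64 inflamed HEC (68.8%, 55.9% to 79.8%). Among the cells that detected it the medians were alike, 95.4 FPKM in homeostatic and 104 FPKM in inflamed HEC, so that the groups differed in the share of cells rather than in the level of those cells. The level was 2.66 ± 3.20 in homeostatic and 3.97 ± 3.43 in inflamed HEC, a difference of 1.31. Dedifferentiated HEC differed from homeostatic HEC by -0.03 although 23 of 44 (52.3%, 36.7% to 67.5%) detected Igtp, with a median of only 6.55 FPKM in those cells.

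Irgm1, a regulator of autophagy on the Golgi and mitochondria, was called higher in homeostatic HEC than in BEC. Its lowest, median and highest FPKM were 0, 16.8 and 1358 in homeostatic HEC against 0, 0.75 and 559 in BEC, and they were 0, 2.82 and 1014 in dedifferentiated HEC against 0, 37.03 and 971 in inflamed HEC. The level was 2.70 ± 3.11 in BEC and 4.20 ± 3.53 in homeostatic HEC, a difference of 1.50 or 0.451 SD, and 58 of 79 homeostatic HEC lay above the BEC median. Inflamed HEC exceeded homeostatic HEC by 0.73, and dedifferentiated HEC differed by -0.37. Irgm2, the remaining GMS gene, had equal levels of 2.41 in BEC and homeostatic HEC, 3.29 in inflamed and 1.97 in dedifferentiated HEC. It was detected in 34.4%, 46.8%, 67.2% and 38.6% of cells, in that order of groups. Igtp and Irgm2 share 12.3% of the windows of Igtp, so that some reads may not tell them apart.

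The GKS proteins were the most abundant members in HEC. Iigp1, also called Irga6, is the effector best studied on Toxoplasma vacuoles. Its lowest, median and highest FPKM were 1.55, 259 and 4134 in inflamed HEC, 0, 168 and 2099 in homeostatic HEC, 1.69, 295 and 2359 in dedifferentiated HEC, and 1.38, 207 and 1898 in BEC. It was at 1 or more in 217 of the 219 cells, but values from 1 to under 10 FPKM made up 10 of 32 BEC, 14 of 79 homeostatic, 2 of 64 inflamed and 13 of 44 dedifferentiated HEC. At 10 or more it was found in 68.8%, 79.7%, 96.9% and 70.5% of cells in that order of groups. As with Gbp7, the inflamed cells had few low values: the level was 6.79 ± 2.98 in homeostatic and 7.95 ± 2.17 in inflamed HEC, a difference of 1.17, and the log2 ratio of arithmetic means was 0.44. The other differences were 0.58 and -0.10.

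Tgtp1, also called Irgb6, had the largest difference of any member in mean log2(FPKM + 1), between HEC and BEC. Its lowest, median and highest FPKM were 0, 184 and 2023 in homeostatic HEC against 0, 3.01 and 2173 in BEC, and they were 0.79, 140 and 2975 in dedifferentiated HEC against 0.3, 241 and 1532 in inflamed HEC. The highest BEC exceeded every homeostatic HEC, yet 69 of 79 homeostatic HEC (87.3%) lay above the BEC median. At 10 or more it was found in 13 of 32 BEC and 66 of 79 homeostatic HEC. The level was 3.52 ± 3.37 in BEC and 6.76 ± 2.87 in homeostatic HEC, a difference of 3.23 or 1.03 SD. As a log2 ratio of arithmetic means it was 1.002, below Igtp (1.16) and Irgm1 (1.12). The other differences were 0.62 for inflamed and -0.02 for dedifferentiated HEC. Tgtp1 is uncertain as a gene, because 89.4% of the 50-base windows of its transcript also occur in Tgtp2. Tgtp2 had medians of 214 FPKM in homeostatic HEC and 131 FPKM in BEC, with 187 FPKM in the inflamed and 89.0 FPKM in the dedifferentiated cells, and differed by 0.78 between homeostatic HEC and BEC. With both genes summed the difference between homeostatic HEC and BEC was 1.42, less by over 1.5 times than for Tgtp1 alone and below that of Irgm1.

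In the comparison of homeostatic HEC with BEC, which asks how the 2 kinds of vessel cell differ at rest, 3 of 10 members were higher (Tgtp1, Irgm1 and Gbp6) and 0 lower. Over all 9248 genes tested, 17% were higher and 4.4% lower. The median difference of the members was 0.68, against 0.28 over all genes tested. With median-ratio size factors the median of all genes was 0.14 and 63.9% of the genes called were higher, against 79.4% in the values as deposited and 66.5% with every cell rescaled to the same FPKM sum. Then Gbp6 was at 0.92 under size factors and 1.12 under rescaling, and Tgtp1 (2.85 and 3.01) and Irgm1 (1.18 and 1.31) were called under both. Gbp3 and Irgm2, near 0 as deposited, changed sign (-0.18 and -0.30 with size factors, -0.21 and -0.22 with rescaling). In 25 cells of each group matched on the number of detected genes, Tgtp1 (1.32) and Irgm1 (1.25) were called higher, and Gbp7 (-1.98), Gbp3 (-1.33) and Irgm2 (-1.29) were called lower, where 11.5% of all genes were higher and 9.74% lower. As ratios of arithmetic means Tgtp1, Irgm1 and Igtp were called higher and Gbp6 (0.74) was not, Irgm2 was at -0.85, and 26.4% of all genes were higher.

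Inflamed and homeostatic HEC are compared to see what the inflamed node changes in these cells. Here 4 of 10 members were higher (Gbp7, Igtp, Gbp2 and Iigp1), 0 were lower, and all 10 differences in mean log2(FPKM + 1) were above 0. Over all 9525 genes tested, 5.48% were higher and 2.6% lower. The median of the members was 0.89, against 0.10 over all genes tested. The differences ran from 0.08 for Gbp6 to 1.82 for Gbp7 and came from both families, with 2 of 5 guanylate-binding, 1 of 3 GMS and 1 of 2 GKS genes called. In 59 cells of each group matched on detected genes, Gbp7 (1.50) was the only member called, and Igtp (0.91), Gbp2 (0.89) and Iigp1 (0.80) fell short of 1, where 4.04% of all genes were higher and 4.14% lower. Gbp3 (-0.13), Gbp6 (-0.36) and Tgtp1 (-0.07) were below 0 in these matched cells. As ratios of arithmetic means the only member called was Gbp5 (1.03), where 15.1% of all genes were higher, and Gbp6 (-0.15) and Irgm1 (-0.02) were below 0. Gbp6 was at -0.01 with size factors and 0.14 with rescaling, and the other 9 kept their sign under both scalings.

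The dedifferentiated HEC, in which the lymphotoxin signal was blocked, were compared with the same homeostatic HEC as the inflamed cells, so that these comparisons share 1 group. Here 1 of 10 members was lower (Gbp6) and 0 were higher. Over all 9008 genes tested, 9.52% were lower and 0.833% higher. The median of the members was -0.39, against -0.30 over all genes tested. It was above 0 in cells matched on detected genes (0.22) and by arithmetic means (0.32). Of the genes called, 8.04% were higher in the values as deposited and 20.3% with size factors. Igtp, Iigp1 and Tgtp1 turned positive with size factors (0.16, 0.22 and 0.31), and Igtp (0.03) and Tgtp1 (0.0016) also did with rescaling. In 37 cells of each group matched on detected genes, Gbp6 was at -1.03, while Igtp (1.06) and Tgtp1 (1.04) were called higher, where 4.76% of all genes were higher and 4.55% lower.

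**Figure D3:**
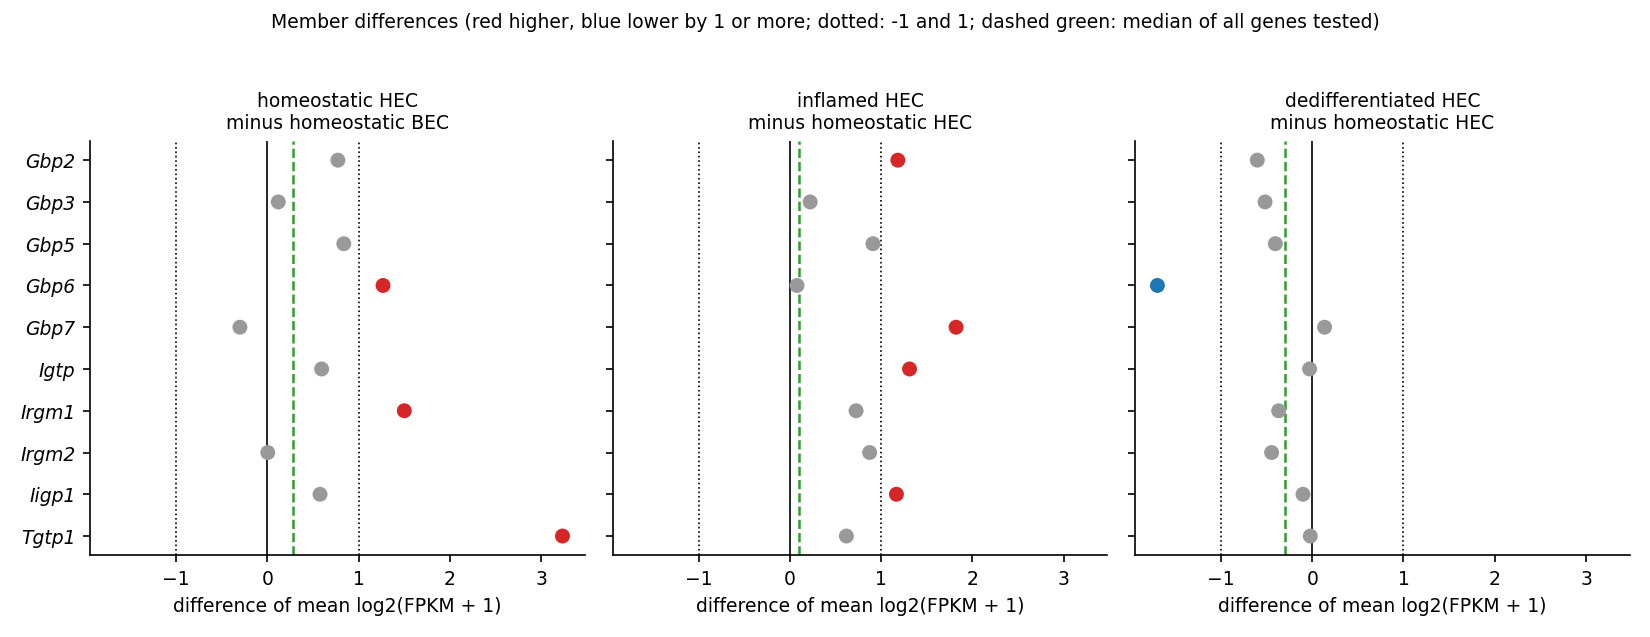
Difference of mean log2(FPKM + 1) for each member in the 3 comparisons, with calls at 1 or more in red and at -1 or less in blue, and the median of all genes tested as a dashed line. In the middle panel all 10 members lie above 0 and 4 are past 1, and in the right panel only Gbp6 (-1.70) is past -1.

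Counted per cell, the members were detected together to different degrees. The lowest, median and highest number of members detected was 3, 8 and 10 in inflamed HEC, 0, 7 and 10 in homeostatic HEC, 2, 6 and 10 in dedifferentiated HEC, and 2, 5 and 10 in BEC. Cells with 9 or 10 members made up 4 of 32 BEC (12.5%, 3.51% to 28.99%), 18 of 79 homeostatic HEC (22.8%, 14.1% to 33.6%), 28 of 64 inflamed HEC (43.8%, 31.4% to 56.7%) and 6 of 44 dedifferentiated HEC (13.6%, 5.17% to 27.4%). Cells with at most 3 members were 8 BEC, 7 homeostatic, 2 inflamed and 5 dedifferentiated HEC. No group was uniform, and each held cells with all 10 members (1 BEC, 7 homeostatic, 11 inflamed and 4 dedifferentiated HEC). The number of members detected went with the number of genes detected at r 0.674 in BEC, 0.537 in homeostatic, 0.186 in inflamed and 0.325 in dedifferentiated HEC. The part of depth and RNA content in these counts was not tested.

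**Figure D4:**
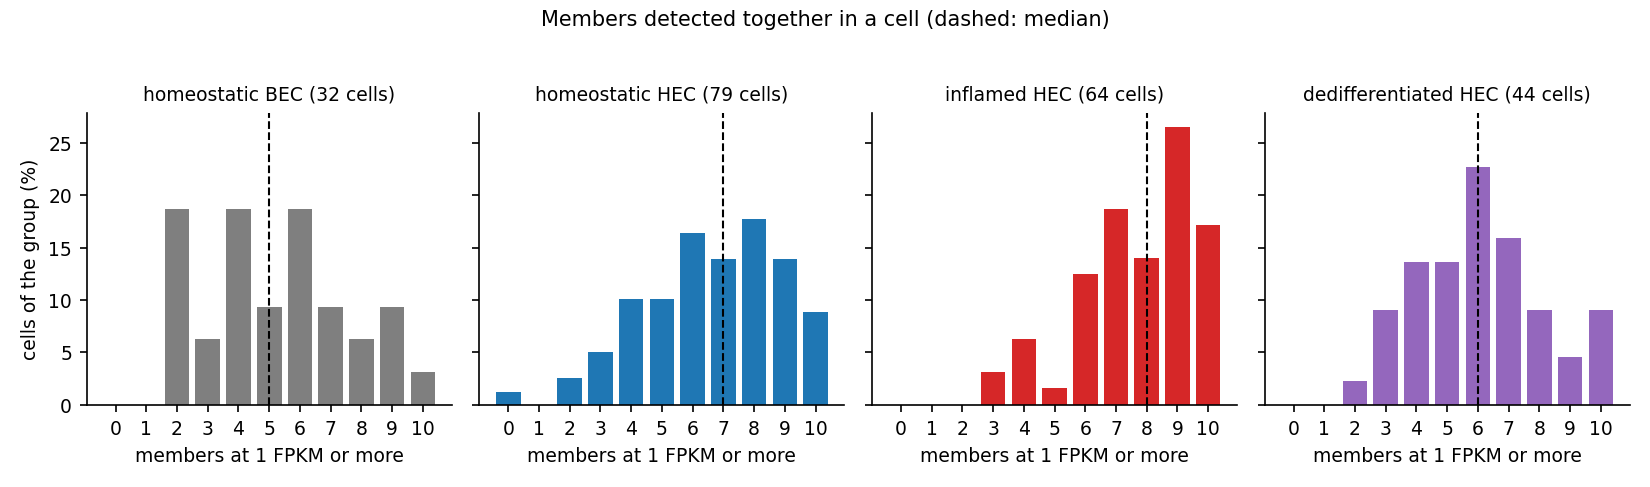
Share of cells (%) by the number of the 10 members at an FPKM of 1 or more, for each group, with the median dashed at 5, 7, 8 and 6 members. The inflamed HEC have 43.8% of cells at 9 or 10 members.

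A few cells stood far above their group. The mean of log2(FPKM + 1) over the 10 members had a median of 3.10 and a highest value of 10.04 in dedifferentiated HEC, reached by cell 41. That cell had 1478 FPKM of Gbp2, 514 of Gbp5, 1095 of Gbp6, 1615 of Gbp7, 903 of Igtp, 959 of Irgm1, 2358 of Iigp1 and 2975 of Tgtp1. All of these members were high in it at once, and dedifferentiated cells 39 and 17 followed at 9.38 and 8.64. The highest cells of the other groups were inflamed cell 15 at 8.92, homeostatic HEC 48 at 8.75 and BEC 2 at 5.74. BEC 2 was uneven: it had 888 FPKM of Gbp2 and 362 FPKM of Gbp7 but 0.73 FPKM of Igtp and 0.23 FPKM of Irgm2. The dedifferentiated group therefore held the highest cell of the 4 groups and the lowest group median.

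Over the cells of a group, levels of the members went up and down together weakly. Among the 45 pairs the median Pearson r was 0.233 over 32 BEC, 0.318 over 79 homeostatic, 0.294 over 64 inflamed and 0.363 over 44 dedifferentiated HEC, and r was above 0 in 38, 45, 44 and 44 pairs in that order. Pairs of other genes were not correlated, so these medians and counts have no background beside them. The values of a cell share a library and its depth, whose part in these correlations was not tested. Being on the same chromosome went with little difference in r. The 12 pairs on the same chromosome had medians of 0.217, 0.343, 0.263 and 0.321. The 33 pairs on different chromosomes had medians of 0.233, 0.313, 0.306 and 0.363. The same-chromosome pairs mix distances, because the 4 members on chromosome 3 span 144031 bases and the 4 on chromosome 11 span 9360815 bases. Nearness within a chromosome was not tested. The highest r of each group was 0.505 for Gbp2 with Gbp7 in BEC, 0.519 for Gbp7 with Irgm2 in homeostatic HEC, 0.564 for Irgm1 with Iigp1 in inflamed HEC and 0.650 for Gbp2 with Gbp5 in dedifferentiated HEC. Averaged over the 4 groups, Gbp2 with Gbp5 was highest at 0.430 and Irgm2 with Tgtp1 lowest at 0.106.

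**Figure D5:**
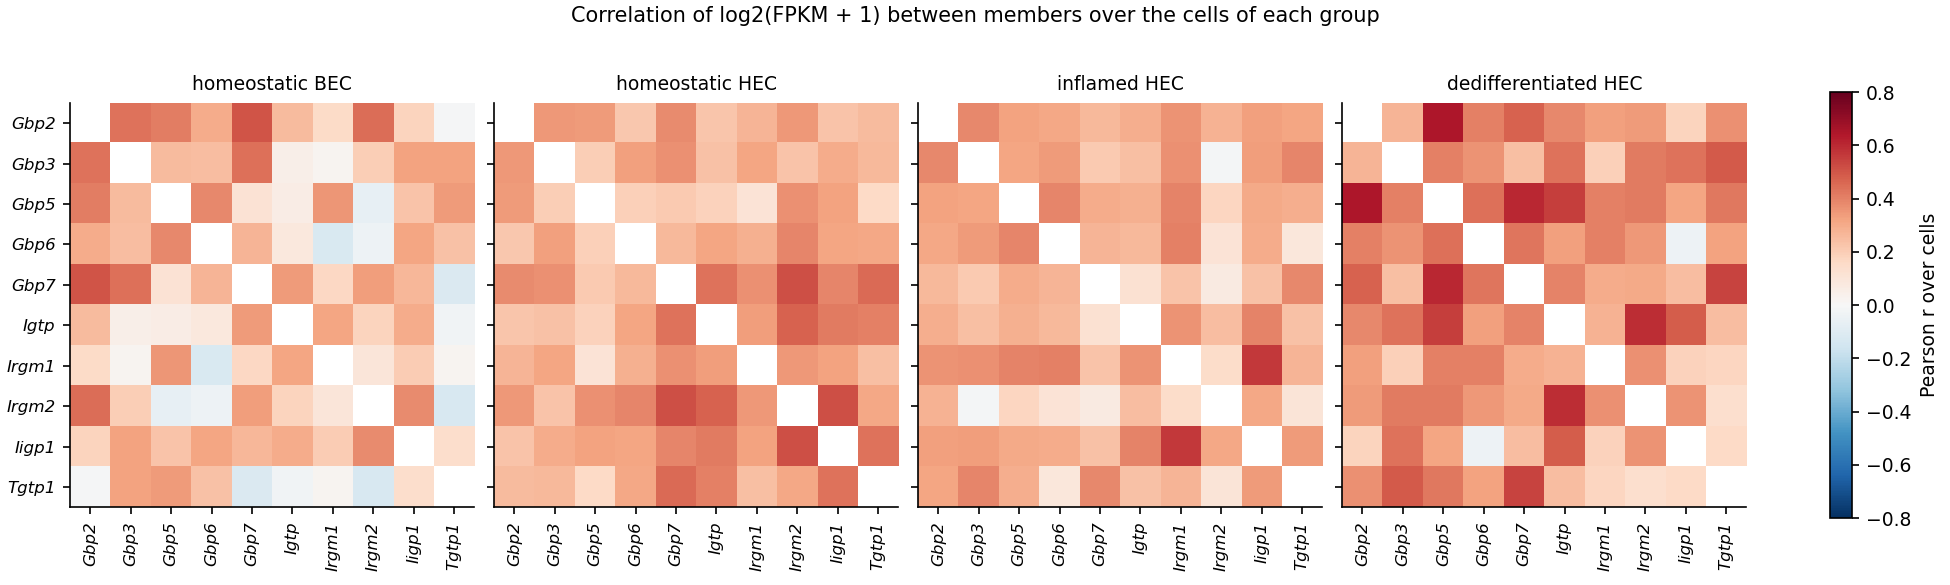
Pearson r of log2(FPKM + 1) between each pair of members over the cells of each group, on a colour scale from -0.8 (blue) to 0.8 (red), with the diagonal left blank. All 45 pairs are above 0 in homeostatic HEC, and the darkest square is Gbp2 with Gbp5 (0.650) in dedifferentiated HEC.

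Of 3997 other genes detected in 20% or more of the cells of every group, those most like the mean of the members over cells were mostly other interferon-response genes. The measure was the mean of the 4 within-group r values, with a median of 0.0557 over all of these genes. By group, their median r was 0.146 in BEC, 0.0768 in homeostatic, -0.00753 in inflamed and 0.0148 in dedifferentiated HEC. Ifit3, a type I interferon response gene, came first at 0.495, followed by the GTPase gene F830016B08Rik (0.492), Tgtp2 (0.487), the GTPase gene Gm12250 (0.458) and the transcription factor Irf7 (0.436). Next were Rtp4 (0.407), the GTPase gene Gm4951 (0.398), Mnda (0.391), Mndal (0.390) and Ifi44 (0.389). Tgtp2 shares sequence with Tgtp1, and Gm4951 with Iigp1 (2.83% of windows). Of these 10 genes 8 are in the fixed lists, as are 18 of the first 30. The share of listed genes among all 3997 was not computed. The lists include paralogs of the members and were chosen with earlier results of these data known.

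The other genes of the family gave mixed values. They and the following lists were counted only in the values as deposited, without the scalings, matched cells or arithmetic means. The counts for this and the following lists stand beside the shares of all genes tested: 17% higher and 4.4% lower in homeostatic HEC against BEC, 0.833% and 9.52% in dedifferentiated HEC, and 5.48% and 2.6% in the inflamed cells. Of 17 other interferon-inducible GTPase genes with a row, 14 were tested between inflamed and homeostatic HEC, of which 4 were higher (Gvin1 1.63, Gm12250 1.53, Gm4951 1.32 and Gbp4 1.25) and 0 lower, with a median of 0.50. Gbp4 had medians of 9.50 FPKM in BEC, 29.7 in homeostatic, 106 in inflamed and 35.1 in dedifferentiated HEC. Gbp9 differed by -0.22 and Gbp8 by -0.48, so the family did not move as a whole. Against BEC, 1 of 12 was higher in homeostatic HEC (Ifi47, 1.85) and 0 lower. In dedifferentiated HEC, 0 of 13 were higher and 2 lower (9930111J21Rik1 -1.42 and F830016B08Rik -1.02). Gbp2b was at 0 in all cells but 1.

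Among 12 genes of interferon-gamma reception and signalling, 10 were tested. Of these, 3 were higher in homeostatic HEC than in BEC: the kinase Jak1 (2.16), the receptor chain Ifngr2 (2.11) and the feedback inhibitor Socs3 (1.89). Ifngr2 had a median of 0.975 FPKM in BEC and 46.1 FPKM in homeostatic HEC, whereas the ligand-binding chain Ifngr1 was at 134 FPKM in BEC and 70.04 FPKM in homeostatic HEC, a difference of -0.72. Both receptor chains were thus detected in each group, Ifngr1 in at least 95.5% of cells. The Ifngr2 median in BEC lay under the detection limit of 1 FPKM. In inflamed HEC, Jak2 (1.61) and the phosphatase Ptpn2 (1.12), which dampens Jak signalling, were higher and 0 genes were lower. Irf1 differed there by -0.80. In dedifferentiated HEC, 0 genes were higher and 3 were lower (Ifngr2 -1.50, Socs3 -1.16 and Irf1 -1.09), and all 10 differences were below 0, with a median of -0.47 against -0.30 over all genes.

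Transcripts of interferon-gamma itself (Ifng) were at 0 in all 219 cells. An approximate upper limit, 3 divided by the number of cells, is 1.37% of these sorted cells with a detected transcript. It does not cover transcripts that were present and not captured, or other cells of the node. Tbx21, the T-bet gene of interferon-gamma producing lymphocytes, was listed in no comparison because of low detection. Of 7 genes for sources of interferon-gamma, the interleukin-18 receptor gene Il18rap was the only one tested. It was detected in 0 of 32 BEC, 9 of 79 homeostatic, 14 of 64 inflamed and 0 of 44 dedifferentiated HEC, where the same floor of 3 cells allows shares with detection of up to 9.38% and 6.82%.

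In the values as deposited, the type I interferon response list had a median difference above that of the members (0.89) in inflamed HEC. Of 18 genes, 11 were higher, 0 were lower and all 18 differences were above 0, with a median of 1.29, led by Oasl2 (2.19), Bst2 (2.06) and Zbp1 (2.04). Both interferon types act through the ISRE element printed above, and several of these genes also respond to interferon-gamma, so the lists do not separate the types. Against BEC the list and the members differed in sign: 6 of the 18 were lower in homeostatic HEC and 1 higher, with a median of -0.62, led by Rsad2 (-4.55) and Ifit3 (-2.42), while the members had a median of 0.68. Rsad2, an antiviral enzyme gene, was detected in 24 of 32 BEC and 10 of 79 homeostatic HEC. Of 17 tested in dedifferentiated HEC, 0 were higher and 1 lower (Rtp4, -1.17). Among the type I receptor and signalling genes, Irf7 (1.78) and Usp18 (1.19) were higher and the receptor chain Ifnar2 (-1.65) was lower in inflamed HEC.

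Interferon-gamma induced chemokines and immune regulators split. In inflamed HEC, of 16 tested, the chemokine Cxcl9 (2.19) and the proteasome activator Psme2 (1.36) were higher, and Cd74 (-3.07) and H2-Aa (-1.79), both of class II antigen presentation, were lower. Cxcl9 had medians of 0.2 FPKM in homeostatic and 5.33 FPKM in inflamed HEC and was detected in 24 of 79 and 44 of 64 cells. Over cells, Cxcl9 followed the mean of the members at r 0.393 in 79 homeostatic, 0.502 in 64 inflamed and 0.655 in 44 dedifferentiated HEC but at -0.03 in 32 BEC. Against BEC, 7 of 15 were higher and 1 lower in homeostatic HEC, the largest being Ubd (7.97), which is also an HEC marker, and Cd74 (5.17). Cd74 and H2-Aa were thus lower in inflamed HEC, where all 10 members had differences above 0 in the values as deposited. Ubd was not called there.

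Partners that the GTPases need on vacuoles showed few calls. Of 18 genes for autophagy conjugation, adaptors and inflammasomes tested in inflamed HEC, 2 were higher, the pore-forming effector Gsdmd (1.30) and Arhgdia (1.08), which has been described to hold back Gbp and Iigp1 loading, and 1 was lower, the adaptor Sqstm1 (-1.11). The conjugation genes Atg3, Atg5 and Atg7 differed by 0.37, 0.04 and -0.44. In homeostatic HEC against BEC, 2 of 17 were higher, Casp4 (2.40), the sensor of cytosolic lipopolysaccharide, and Gabarap (1.95), and 1 was lower, Map1lc3a (-1.70). Casp4 was detected in 5 of 32 BEC and 53 of 79 homeostatic HEC. In dedifferentiated HEC, 2 of 17 were lower, Casp4 (-1.18) and Map1lc3b (-1.06), and 0 were higher, a share near the 9.52% lower over all genes.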

How the data were processed

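Single-cell RNA sequencing gave 220 cells, grouped from their labels. The table deposited by the authors holds FPKM to 2 decimals for 24049 symbols. CASAVA 1.8, RSEM 1.2.18 and mm10 are named per the submitters' processing notes. Not given in the sources used here are their roles, the annotation, the animals, the chips and how doublets and multi-mapped reads were treated. The members and lists were chosen with earlier results of these data known, and 5 listed symbols had no row. The list of reception and signalling genes is counted without 1 gene, which is not reported here. All 10 members were named. From the lists, genes with a difference of 1 or more and paralogs of members could be named, with the 10 genes most like the members' mean; a few others (Ifngr1, Irf1, Atg3, Atg5, Atg7, Ifng, Tbx21 and Il18rap) were named for their role. Tests made for counts were not applied to FPKM. Levels, shares and r were computed with Python 3.11.15, numpy 2.4.6, pandas 2.3.3 and scipy 1.17.1, with a pseudocount of 1. The differences were tested on simulated data in which widely detected genes were raised by a known factor. Shares and r were not tested in this way. Depth was approximated from steps of low FPKM over 5412 single-transcript genes (0.998 to 1.00 times the true depth in 20 simulated cells). The simulated cells were built with the formula that the estimate inverts, so that range does not measure accuracy in the real cells. Positions and transcript windows came from GENCODE M21, which held 94.6% of symbols, and promoters from RefSeq.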

Additional observations from a re-analysis of the deposited data

How the results depend on the processing

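Alternatives were another pseudocount, 2 scalings, arithmetic means, all 220 cells, no cells with markers of other types, cells matched on detected genes, no filter and another detection limit, with summed copies and each cell left out in turn added after seeing the data. With a pseudocount of 10, members higher were 1 of 10 in homeostatic HEC against BEC and 1 in inflamed HEC, and members lower were 0 in dedifferentiated HEC. With a pseudocount of 0.1, 7 members were higher in inflamed HEC. With arithmetic means, 1 was higher in inflamed HEC and 0 were lower in dedifferentiated HEC. With cells matched on detected genes, 3 members were lower in homeostatic HEC against BEC, 1 was higher in inflamed HEC and 2 were higher in dedifferentiated HEC. At a detection limit of 10 FPKM the median inflamed HEC had 6 members. Leaving out 1 cell gave 3 to 5 members higher in homeostatic HEC against BEC (5 without BEC 5), and the medians ranged over 0.60 to 0.83, 0.81 to 0.96 and -0.55 to -0.31 in the 3 comparisons. The cause of these changes was not tested. With rescaling, 6 members were higher in inflamed HEC, and with size factors or matched cells 2 were higher in homeostatic HEC against BEC. These stand among the other 122 values for counts and medians, in which a count moved by at most 1.5 times and a median by less than 1 SD over cells. The 330 values for single members moved by less than 1 SD over cells, and those that changed sign under a scaling stand beside the results. That SD was 2.17 to 3.59 for members and 1.76 to 1.94 for medians. It was larger than every main difference except Tgtp1 in homeostatic HEC against BEC, so staying within it does not show a stable value. In that comparison Tgtp1 stayed within it when going from 3.23 to 1.002 with arithmetic means. Gbp7 did so when going from -0.30 to -1.98 in matched cells. Some of the 330 values could not move. Dropping the filter changed no member value, and using all 220 cells changed only the comparison with inflamed HEC. Summing copies changed only the summed gene. Matched cells gave a median of 0.22 in dedifferentiated HEC, and arithmetic means 0.32. No paired analysis was possible because the replicate numbers only name cells and each group is 1 sample. Depth limits values near 1 fragment, and intervals do not cover differences between animals.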
